A study of Mus musculus with 12 samples.

Results

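Mitochondria carry their own ribosomes, which translate the few mRNAs of the mitochondrial genome into membrane subunits of the respiratory chain and of ATP synthase. The rRNAs of these ribosomes are encoded in the mitochondria, whereas every protein subunit is encoded in the nucleus, translated in the cytoplasm and imported. Oocytes hold a very large stock of mitochondria that is passed on to the embryo. The mitochondrial ribosomal protein genes were taken as the protein-coding genes of GENCODE mouse release 21 whose symbol begins with Mrpl or Mrps and a digit. The rule gave 78 of the 55573 genes counted, spread over 17 chromosomes. By the role of the protein, 51 belong to the large subunit and 26 to the small subunit of the mitochondrial ribosome. The large-subunit proteins comprise 30 with a counterpart in bacterial ribosomes and 21 found in mitochondria alone, and the small-subunit proteins comprise 16 and 10. Mrps18a and Mrps18b are counted here as mitochondria-specific, although their proteins are related to a bacterial one. The name does not always give the subunit, since Mrps18a and Mrps30 encode proteins of the large subunit. Mrps36 belongs to neither subunit, because its protein is part of the 2-oxoglutarate dehydrogenase complex.

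The data were 12 poly(A) RNA-seq libraries from fully grown mouse oocytes at the germinal vesicle (GV) stage, in which the nuclear envelope is intact. All 8 oocytes came from 1 B6D2F1 female of 12 weeks and were collected in M2 medium with milrinone, which holds meiotic arrest. Whole oocytes, 1 in each library, were amplified for 10, 14 or 18 cycles, with 2 libraries each, and 2 further lysates were diluted to 1/2, 1/4 and 1/8 of an oocyte, with 2 libraries each, which the study's methods give as amplified for 18 cycles. The same amount of ERCC spike-in RNA was added to every library, and the study used the fractions to illustrate normalization by ERCC molecules. Whole oocytes at 18 cycles held the fewest ERCC counts, only 1611 in the first library and 1474 in the second. Whole oocytes amplified less had 35852 and 25528 (10 cycles) or 35616 and 39046 (14 cycles). Fractions ranged from 9167 in the first 1/2 library to 231470 in the first 1/8 library. Every ERCC-based comparison with whole oocytes at 18 cycles thus rests on few ERCC counts. Counts on genes were 11597144 and 9189672 at 10 cycles, 12349577 and 13806199 at 14 cycles and 3017069 and 1706478 in whole oocytes at 18 cycles. They were 4024670 and 3598549 in the 1/2 libraries, 4027907 and 5049518 in the 1/4 libraries and 11404262 and 1702062 in the 1/8 libraries. The libraries were therefore shallower in whole oocytes at 18 cycles than at 10 and 14 cycles, and cycle number, oocyte, depth and preparation cannot be told apart. All oocytes came from 1 female, so p-values measure the spread between oocytes or lysates of this animal, and not between animals.

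The labelled cell type was checked against marker genes. All 12 oocyte markers had counts in every library, and the most abundant was Gdf9, a growth factor secreted by the oocyte, at 1579 to 5874 CPM (a gene's scaled share of the counts on genes in a library). The summed level of the oocyte markers was 35722 and 30951 CPM at 10 cycles, 34890 and 36543 CPM at 14 cycles and 14712 and 12967 CPM in whole oocytes at 18 cycles. In the fractions the sum was 20433 and 17261 CPM in the 1/2 libraries, 24251 and 25666 CPM in the 1/4 libraries and 30455 and 25991 CPM in the 1/8 libraries. The whole oocytes at 18 cycles thus held the lowest share of oocyte marker RNA among the groups. Of 12 granulosa and cumulus cell markers, 3 had counts in every library and Tnfaip6 had 0 counts in all 12. Their summed level was 11.7 to 101 CPM, led by the aromatase gene Cyp19a1 at 5.97 to 46.1 CPM, and 2 of the 9 tested were lower at 18 cycles than at 10 and 14 cycles with gene size factors, whereas 2 were higher with ERCC size factors and all 9 had a positive difference. Of all genes 12.6% were lower with gene size factors and 53.1% higher with ERCC size factors (adjusted p under 0.01 in edgeR). Of 6 blood cell markers, Hba-a1, Hba-a2 and Hbb-bt had 0 counts in every library, and the summed level was at most 0.259 CPM.

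Almost all mitochondrial ribosomal protein genes were detected in every library. At least 1 count was found in all 12 libraries for 76 of 78 genes, and at least 5 counts for 75. All 78 genes passed the filter on low counts (at least 5 counts in at least 2 libraries) in each of the models. Levels between genes were compared per kilobase of merged exons, as the geometric mean over the 4 whole oocytes at 10 and 14 cycles. The highest level was that of Mrpl34, one of the smallest proteins of the large subunit, at 125 CPM per kb. It was followed by Mrpl14 at 109.6, Mrpl28 at 89.8 and Mrpl12 at 89.6 CPM per kb, so that the leading genes all encode large-subunit proteins with bacterial counterparts. In the 4 libraries Mrpl34 ranged from 103 to 151 CPM per kb, and Mrpl14 from 101 to 119, so these neighbours in the order overlapped. Mrpl28, at 73.6 to 101 CPM per kb, also overlapped Mrpl12, at 80.7 to 98.8. The scale matters for single genes, as Mrps22 ranked 9 per kilobase of merged exons but 1 per kilobase of its longest coding transcript.

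At the other end, the genes Mrps10 and Mrpl23 had very few counts, although both encode conserved ribosomal proteins, Mrps10 of the small subunit and Mrpl23 of the large subunit. Their levels were 0.0627 and 0.136 CPM per kb, whereas the next lowest genes, Mrpl19 and Mrps26, stood at 1.74 and 2.67 CPM per kb. The gap depends on the scale, because the merged exons of Mrps10 and Mrpl23 are long, at 8079 and 4883 bases. Per kilobase of the longest coding transcript, of 1113 and 736 bases, they were still the lowest at 0.455 and 0.901 CPM per kb, but nearer to Mrpl19 at 1.90 and Mrps26 at 2.72. Mrpl23 had 10 and 4 counts at 10 cycles, 11 and 8 at 14 cycles and 1 and 2 in whole oocytes at 18 cycles. In the second 1/8 library Mrpl23 had 0 counts, which allows a level of up to 1.76 CPM. Mrps10 had at most 14 counts in any library and 0 counts in the first 1/4 library, which allows up to 0.745 CPM. These limits cover counting error only, since reads copied from 1 molecule are not told apart here. Both genes have a processed pseudogene with nearly the same sequence. The pseudogene of Mrpl23 on chromosome 2 was identical over 540 of the 692 bases of the transcript aligned and had at most 8 counts in any library. The pseudogene of Mrps10 on chromosome 17 matched at 97.9% over 573 of 1018 bases and had at most 1 count. Whether reads shared with these copies were lost in counting was not tested.

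Shared sequence also touched other members. A copy elsewhere in the genome with at least 95% identity over at least 300 bases was found for 18 of the 78 genes, all of them processed pseudogenes. Exon bases were shared with another annotated gene by 33 genes, 28 of them with a gene on the opposite strand. The library kit does not mark strand, so reads of such pairs cannot be told apart. Reads set aside as ambiguous were 2.64 to 2.98% at 10 and 14 cycles and 4.10 and 3.89% in whole oocytes at 18 cycles. They were 4.53 and 4.35% in the 1/2 libraries, 4.41 and 3.98% in the 1/4 libraries and 3.19 and 2.98% in the 1/8 libraries. Their effect on the members' counts was not tested. The share of exon bases that overlap another gene was largest for Mrpl53, Mrps34 and Mrps25, at 88.0%, 77.8% and 69.8%. A set of 34 members had neither shared exon bases nor a close copy, and their counts are given beside the comparisons of whole oocytes at 18 cycles.

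The summed level of the 78 genes was lowest in the whole oocytes amplified for 10 and 14 cycles. It was 4437 and 4757 CPM at 10 cycles and 4679 and 5024 CPM at 14 cycles, and 8903 and 8115 CPM in whole oocytes at 18 cycles. Both 18-cycle values lay above the 4 values at lower cycle number. Wilson 95% intervals for counting error were 8797 to 9009 and 7982 to 8251 CPM for the latter 2 libraries. The sum was 10544 and 7866 CPM in the 1/2 libraries, 6394 and 6708 CPM in the 1/4 libraries and 6354 and 6041 CPM in the 1/8 libraries. From 10 and 14 to 18 cycles the sum differed by 0.85 on the log2 scale, a ratio of 1.80. The exact two-sided permutation test gave p = 0.133 (2 against 4 libraries), which is the smallest that the design allows, and the Benjamini-Hochberg adjusted value over 10 comparisons of sums was 0.417. No comparison of sums can therefore reach 0.05. The 14-cycle and 10-cycle sums overlapped, with a log2 difference of 0.078 (exact permutation p = 0.667).

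**Figure D1:**
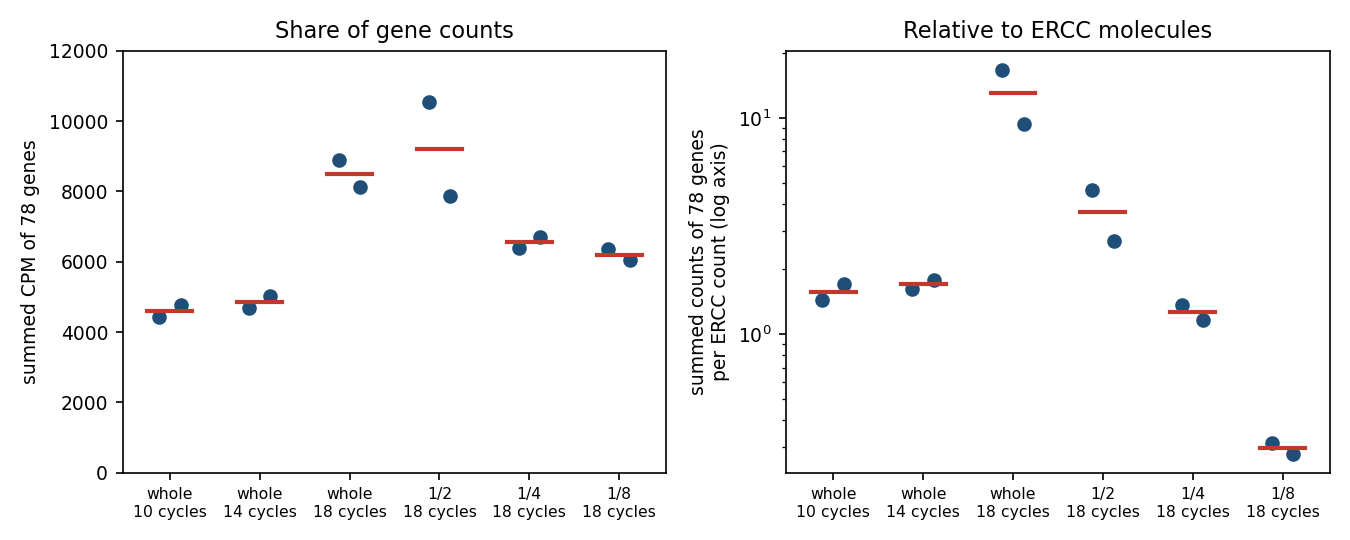
Summed level of the 78 mitochondrial ribosomal protein genes in each library, as CPM (left) and as counts per ERCC count on a log axis (right). Each point is 1 library and each bar the mean of 2, and the whole oocytes at 18 cycles, at 8903 and 8115 CPM, lie above those at 10 and 14 cycles.

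Between 10 and 14 cycles no mitochondrial ribosomal protein gene differed past the threshold of an adjusted p under 0.01. Across all genes edgeR called 0% of 17532. The count at an unadjusted p under 0.05 was 1 of 78, beside 513 of all 17532 genes, and DESeq2 called 0 members too. The median log2 fold change of the 78 genes was 0.051, beside 0.0062 for all genes tested. The values ran from -0.33 to 0.70, and the extremes were not called. The highest value was that of Mrps26, a small-subunit protein found in mitochondria alone, with 9.83 and 8.27 CPM at 10 cycles and 14.5 and 15.6 CPM at 14 cycles (log2 fold change 0.70 ± 0.27 (SE), edgeR adjusted p = 1.00). The levels of members between single libraries at 10 and 14 cycles correlated with r = 0.97 to 0.99, across the 75 members with at least 10 counts in every library. Members are not independent replicates, so this and the correlations that follow are descriptions.

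In whole oocytes at 18 cycles, 40 of the 78 genes were higher and 11 lower than at 10 and 14 cycles, and 27 did not pass, with size factors from genes, while with ERCC size factors 64 were higher, beside 53.1% of all genes, and no fall of a member was called. Over all 17532 genes tested, 15.4% were called higher and 12.6% lower, so the share of higher calls among the members was 51.3% and that of lower calls, 14.1%, was near the background. The median log2 fold change was 1.00 for the members and -0.29 for all genes. Without the filter on low counts these medians were 0.99 and -0.93, so the background depended on the low-count genes kept. The members and all genes were not matched for level. At an unadjusted p under 0.05 there were 59 of 78 members and 8717 of 17532 genes. In the large subunit, 14 of 30 rose and 7 fell among the proteins with bacterial counterparts, with a median log2 fold change of 0.37. Among the large-subunit proteins found in mitochondria alone, 13 of 21 rose and 2 fell, with a median of 1.25. In the small subunit, 8 of 16 rose and 1 fell among proteins with bacterial counterparts, with a median of 1.07. Of the small-subunit proteins found in mitochondria alone, 5 of 10 rose and 1 fell, with a median of 0.97. The small-subunit genes that fell were Mrps11 and Mrps31, the large-subunit genes of the mitochondria-specific class that fell were Mrpl42 and Mrpl51, and the rises of the last class were those of Mrps18b, Mrps25, Mrps26, Mrps34 and Mrps35. Of these, Mrps11, Mrps34, Mrps35, Mrpl42 and Mrpl51 are named here after their values were seen. Differences between these classes were not tested. Of the 34 members without shared exon bases or a close copy, 20 rose and 3 fell. Among the 12 oocyte markers, 11 fell and 1 rose with gene size factors, while with ERCC size factors 3 rose and 11 of 12 had a positive difference, beside 53.1% of all genes higher. Their part in the result was not tested.

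The direction of these calls depended on the scaling. With size factors from ERCC molecules in place of genes, the median of all genes moved from -0.29 to 1.97, and the members' median moved to 3.24. Relative to the median of all genes, the members' median was 1.28 with gene size factors and 1.27 with ERCC size factors. With ERCC size factors edgeR called 64 members higher and 0 lower (71 in either direction at an unadjusted p under 0.05). Over all 17532 genes it called 53.1% higher and 0.0171% lower, with 11001 at an unadjusted p under 0.05. Of the 11 members called lower with gene size factors, 10 then had a positive fold change. The falls below are therefore falls relative to the other genes, and all of them are given with gene size factors. The count of 11 lower members became 8 without the second whole oocyte at 18 cycles, 6 without the first, and 7 when each of the 4 libraries at 10 and 14 cycles was left out in turn.

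With gene size factors, the largest called rise was that of Mrps18a, whose protein sits in the large subunit despite its name (ENSMUSG00000023967, chromosome 17, 46110986 to 46128910, GRCm38). Its level was 44.8 and 39.8 CPM at 10 cycles and 42.4 and 47.9 CPM at 14 cycles, and 333 and 304 CPM in whole oocytes at 18 cycles. The groups did not overlap, and both 18-cycle values were far above the other 4 (log2 fold change 3.15 ± 0.16 (SE), edgeR adjusted p = 5.48e-06). Mrpl52, another large-subunit protein of the mitochondria-specific class, had 15.5 and 17.4 CPM at 10 cycles and 17.6 and 16.2 CPM at 14 cycles, and 159.8 and 73.8 CPM at 18 cycles. The 18-cycle oocytes differed from each other for this gene, but both lay above all others (log2 fold change 3.08 ± 0.25 (SE), edgeR adjusted p = 1.43e-05). Mrps15, a conserved protein of the small subunit that binds the rRNA, had 17.5 and 19.2 CPM at 10 cycles and 20.4 and 19.6 CPM at 14 cycles, and 126 and 98.4 CPM at 18 cycles. Its fold change on the log2 scale was 2.83 ± 0.18 (SE), edgeR adjusted p = 5.81e-06. Mrpl54, of the large subunit, had 19.7 and 18.0 CPM at 10 cycles and 25.02 and 24.8 CPM at 14 cycles, and 104 and 144 CPM at 18 cycles, again with no overlap (log2 fold change 2.81 ± 0.21 (SE), edgeR adjusted p = 9.42e-06).

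Mrpl12, among the genes with the highest levels, rose as well. Its protein forms a stalk of the large subunit that recruits translation factors, and it is also known to bind the mitochondrial RNA polymerase. Mrpl12 had 124 and 135 CPM at 10 cycles and 141 and 151 CPM at 14 cycles, and 609.9 and 613 CPM at 18 cycles. Both 18-cycle values lay far above the others (log2 fold change 2.44 ± 0.16 (SE), edgeR adjusted p = 5.81e-06). Mrpl58, a peptidyl-tRNA hydrolase that rescues stalled ribosomes and is built into the large subunit, had 68.8 and 59.1 CPM at 10 cycles and 70.4 and 80.0 CPM at 14 cycles, and 335 and 296 CPM at 18 cycles. It rose with little spread between the oocytes (log2 fold change 2.47 ± 0.16 (SE), edgeR adjusted p = 5.81e-06). Per kilobase of merged exons, Mrpl12 ranked 4 at 10 and 14 cycles and 1 in whole oocytes at 18 cycles, and Mrps18a ranked 57 and 18. The order of the genes therefore differed between these groups. The other called rises ran down to that of Mrps17, a conserved small-subunit protein singled out here as the smallest, with 127 and 128 CPM at 10 cycles and 114 and 141 CPM at 14 cycles, and 184 and 175 CPM at 18 cycles (log2 fold change 0.78 ± 0.16 (SE), edgeR adjusted p = 0.00357).

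With gene size factors, the largest called fall was that of Mrpl1, the protein of the mobile stalk beside the exit site for tRNA (ENSMUSG00000029486, chromosome 5, 96209493 to 96266727, GRCm38). Its level was 44.1 and 65.0 CPM at 10 cycles and 45.7 and 57.6 CPM at 14 cycles, and 6.96 and 7.62 CPM in whole oocytes at 18 cycles, where it rested on 21 and 13 counts. Every 18-cycle value lay below every other value (log2 fold change -2.61 ± 0.32 (SE), edgeR adjusted p = 1.34e-04), but with ERCC size factors the difference was -0.38 and was not called. Mrpl35, a conserved large-subunit protein, had 89.8 and 117 CPM at 10 cycles and 114 and 110.2 CPM at 14 cycles, and 15.2 and 32.2 CPM at 18 cycles. The fall was past the threshold (log2 fold change -1.95 ± 0.32 (SE), edgeR adjusted p = 8.14e-04), and its size depended on the 18-cycle oocytes, at -1.36 without the first and -2.59 without the second. Mrpl22, which lines the tunnel through which the new protein leaves, had 53.0 and 63.7 CPM at 10 cycles and 50.5 and 46.6 CPM at 14 cycles, and 8.62 and 15.2 CPM at 18 cycles (log2 fold change -1.93 ± 0.31 (SE), edgeR adjusted p = 6.53e-04). Mrpl18, whose bacterial counterpart binds 5S rRNA, had 116 and 149 CPM at 10 cycles and 108 and 129.7 CPM at 14 cycles, and 28.8 and 29.3 CPM at 18 cycles. Its 18-cycle values were close to each other and below all 4 others (log2 fold change -1.84 ± 0.22 (SE), edgeR adjusted p = 1.24e-04). With ERCC size factors the differences of Mrpl35, Mrpl22 and Mrpl18 turned to 0.20, 0.26 and 0.39, and none of the 3 was called. The other called falls ran from -1.75 for Mrps31 to -1.02 for Mrpl33 with gene size factors.

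The related genes of the Mrps18 family gave different values. Mrps18b, of the small subunit, had 35.2 and 25.03 CPM at 10 cycles and 27.3 and 31.7 CPM at 14 cycles, and 51.0 and 47.5 CPM at 18 cycles. It rose by less than Mrps18a (log2 fold change 1.01 ± 0.21 (SE), edgeR adjusted p = 0.00349), and it was no longer called when any 1 library other than the first at 10 cycles was left out, with adjusted p from 0.0109 to 0.0199. Mrps18c, also of the small subunit, had 31.2 and 41.4 CPM at 10 cycles and 33.4 and 35.5 CPM at 14 cycles, and 19.2 and 28.7 CPM at 18 cycles. Its groups overlapped in normalized counts and it was not called with gene size factors (log2 fold change -0.30 ± 0.28 (SE), edgeR adjusted p = 0.411), whereas it was called higher with ERCC size factors, at 1.88. Without the first whole oocyte at 18 cycles the difference of Mrps18c with gene size factors was 0.082. The difference between the family members was not tested. Mrps22, a small-subunit protein found in mitochondria alone, had 205 and 228 CPM at 10 cycles and 227 and 245 CPM at 14 cycles, and 317 and 259.6 CPM at 18 cycles. It missed the threshold in edgeR (log2 fold change 0.63 ± 0.16 (SE), edgeR adjusted p = 0.0106) and passed it in DESeq2 (adjusted p = 8.37e-04). Mrps36, of the 2-oxoglutarate dehydrogenase complex, had 11.04 and 11.2 CPM at 10 cycles and 10.2 and 10.4 CPM at 14 cycles, and 6.63 and 7.62 CPM at 18 cycles, and was not called with gene size factors (log2 fold change -0.32 ± 0.35 (SE), edgeR adjusted p = 0.472), whereas with ERCC size factors it was called higher at 1.91.

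The calls with gene size factors were set beside the base composition of the members. Whether members that rose and members that fell differ in it was not tested. The GC content of the longest coding transcript had a median of 50.01% over the 78 genes, beside 49.9% over the 13858 tested genes with such a transcript. Above the members' median, 25 of 39 genes rose and 2 fell at 18 cycles, and below it 15 of 39 rose and 9 fell. Over all genes 15.4% were higher and 12.6% lower. With ERCC size factors 34 of 39 above and 30 of 39 below were higher and 0 lower, beside 53.1% of all genes higher. Across genes, the log2 fold change and the GC content had a Spearman correlation of 0.48 over the 78 members and 0.39 over all such genes. A relation of the same sign was thus present over all genes. Points in these correlations share libraries and size factors. With transcript length the correlation was -0.067 over the members. The levels per kb already correlated with GC at 0.34 to 0.40 in the libraries at 10 and 14 cycles, and at 0.67 and 0.61 in whole oocytes at 18 cycles (75 members with at least 10 counts in every library). In the fractions it was 0.57 and 0.60 in the 1/2 libraries, 0.60 and 0.56 in the 1/4 libraries and 0.41 and 0.33 in the 1/8 libraries. The SD of the log2 level per kb over the same members was 1.32 to 1.43 at 10 and 14 cycles and 1.94 and 1.90 in whole oocytes at 18 cycles, so the genes were spread over a wider range there.

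The first 240 coding bases of the member with the largest rise and the member with the largest fall are shown, because the contrast in base composition can be read in them. They come from the longest coding transcript of GENCODE release 21 (GRCm38, plus strand for both), and capitals mark the start codon. The pair are the extremes of these data and do not stand for all called members. Below the members' median GC 15 of 39 rose and 9 fell, and above it 25 of 39 rose and 2 fell. Mrps18a (chr17:46111018-46122819, 3 exons) has 60.8% GC in this stretch and 56.0% over its transcript of 884 bases. Mrpl1 (chr5:96210163-96223855, 3 exons) has 43.3% GC in this stretch and 41.6% over its transcript of 3556 bases.
Mrps18a: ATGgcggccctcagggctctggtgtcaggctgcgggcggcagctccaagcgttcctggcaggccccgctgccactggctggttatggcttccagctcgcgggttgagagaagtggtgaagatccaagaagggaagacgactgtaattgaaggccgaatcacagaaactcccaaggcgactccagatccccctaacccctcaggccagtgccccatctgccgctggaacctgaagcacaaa
Mrpl1: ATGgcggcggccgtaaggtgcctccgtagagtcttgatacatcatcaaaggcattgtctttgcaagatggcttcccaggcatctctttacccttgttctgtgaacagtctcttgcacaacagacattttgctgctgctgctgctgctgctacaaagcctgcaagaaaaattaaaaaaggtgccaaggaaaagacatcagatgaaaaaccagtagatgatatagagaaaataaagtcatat

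**Figure D2:**
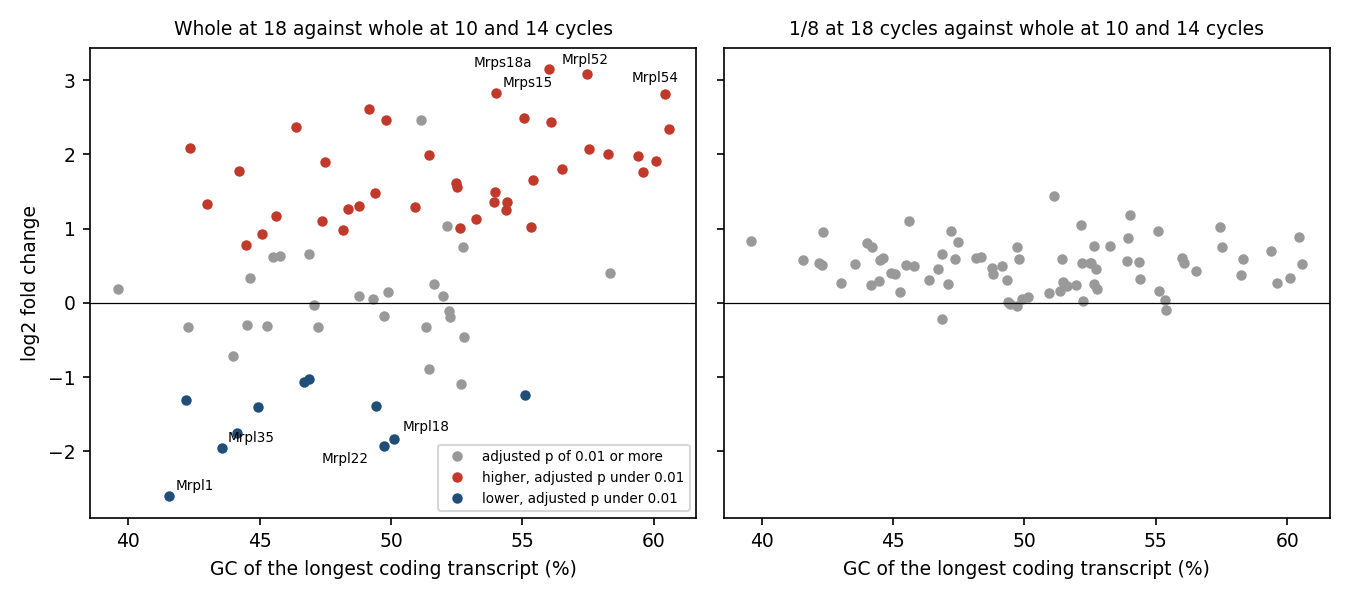
Log2 fold change of each of the 78 genes against the GC content of its longest coding transcript, for whole oocytes at 18 cycles (left) and 1/8 of an oocyte (right), both against whole oocytes at 10 and 14 cycles with gene size factors. Each point is 1 gene and colours mark the edgeR call, and the spread on the left, from -2.61 to 3.15, is wider than that on the right, from -0.21 to 1.44. With ERCC size factors 10 of the 11 falls on the left turn positive.

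Promoter sequences were compared for the members, of which 40 were called higher at 18 cycles with gene size factors. Whether these calls share a regulator was not tested. RefSeq windows of 300 bases around the start of transcription (GRCm38.p6) were matched by symbol for 69 of the 78 genes, as 75 windows. Short motifs were searched on both strands, with the letters CCGGAAG for ETS factors, AAGATGG for YY1, GCNTGCGC for NRF1, TATAAA for the TATA box and CCAAT. In no member window did matches of different motifs overlap. The ETS letters were in 34.7% of the members' windows, beside 15.3% of 15386 windows of genes tested in the model of all libraries and 8.86% of all 32851 windows. For YY1 the shares were 17.3%, 6.79% and 6.34%, and for NRF1 29.3%, 17.2% and 9.95%. The TATA letters were in 6.67%, 8.22% and 13.6%, and CCAAT in 40%, 37.6% and 37.4%. The ETS letters were in 13 of 36 windows of members that rose at 18 cycles, in 4 of 11 windows of members that fell and in 9 of 28 windows of members not called. The YY1 letters were in 8, 4 and 1 of these windows, and CCAAT in 19, 5 and 6. For NRF1 they were 11, 3 and 8, and for the TATA letters 3, 0 and 2. Differences by call were not tested. A match is a string of letters and not a shown binding site. The windows of 2 members that rose and 1 that fell are shown, each on the strand of the gene, with capitals for matches to the ETS or YY1 letters on either strand. They are Mrps18a (chr17:46110754-46111053, plus strand), Mrpl52 (chr14:54426659-54426958, plus strand) and Mrpl35 (chr6:71823735-71824034, minus strand). All 3 hold YY1 letters, whereas 13 of the 75 windows do, and 35 of the 75 hold ETS or YY1 letters. The windows shown are therefore not typical of the members. In Mrps18a and Mrpl35 a YY1 match contains the annotated start codon.
Mrps18a: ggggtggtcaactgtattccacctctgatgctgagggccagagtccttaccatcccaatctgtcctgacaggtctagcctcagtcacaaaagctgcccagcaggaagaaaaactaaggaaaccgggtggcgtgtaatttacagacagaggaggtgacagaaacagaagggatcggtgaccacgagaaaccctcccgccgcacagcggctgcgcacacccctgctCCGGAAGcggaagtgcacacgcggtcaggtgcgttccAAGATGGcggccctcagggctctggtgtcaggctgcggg
Mrpl52: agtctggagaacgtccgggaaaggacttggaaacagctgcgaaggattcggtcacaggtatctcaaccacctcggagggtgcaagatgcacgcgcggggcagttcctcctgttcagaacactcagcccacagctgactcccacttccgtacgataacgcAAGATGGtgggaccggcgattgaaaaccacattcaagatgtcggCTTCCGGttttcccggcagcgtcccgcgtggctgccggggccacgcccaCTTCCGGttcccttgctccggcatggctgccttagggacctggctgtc
Mrpl35: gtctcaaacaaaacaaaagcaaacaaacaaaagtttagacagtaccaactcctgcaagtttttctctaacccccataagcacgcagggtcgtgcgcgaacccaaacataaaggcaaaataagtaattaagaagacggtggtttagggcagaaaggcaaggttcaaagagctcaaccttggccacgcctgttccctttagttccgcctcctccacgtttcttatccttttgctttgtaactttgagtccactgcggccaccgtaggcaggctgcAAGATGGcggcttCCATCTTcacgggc

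The fractions were first compared with whole oocytes at the same 18 cycles, with gene size factors, so that a difference is one of composition. For 1/2 of an oocyte, 2 of 78 genes were called, both higher, against a background of 0.122% of 14788 genes in either direction. They were Mrpl22 and Mrpl32, both of the large subunit and both with a close copy elsewhere in the genome, and Mrpl32 is named here after its values were seen. Of the 34 members without shared exon bases or a close copy, edgeR called 0 (10 at an unadjusted p under 0.05, beside 23 of all 78 members and 1945 of all 14788 genes). Mrpl22 had 8.62 and 15.2 CPM in whole oocytes and 92.2 and 55.9 CPM in the 1/2 libraries (log2 fold change 2.64 ± 0.41 (SE), edgeR adjusted p = 0.00893). Mrpl32 had 39.4 and 51.0 CPM in whole oocytes and 256 and 139 CPM in the 1/2 libraries (log2 fold change 2.10 ± 0.36 (SE), edgeR adjusted p = 0.00893). For both genes the fraction values lay above the whole-oocyte values, yet neither call was stable, as no member was called without the first 1/2 library, without the first 1/8 library, without the first or the second whole oocyte, or with TMM size factors. For 1/4 of an oocyte, only Mrps18a was called, as lower, and it is 1 of the 34 members without shared exon bases or a close copy, against a background of 0.46%. It had 129.6 and 98.0 CPM in the 1/4 libraries (log2 fold change -1.62 ± 0.28 (SE), edgeR adjusted p = 0.00301), and it was not called when any 1 of the 1/4 libraries or of the whole oocytes at 18 cycles was left out. DESeq2 called 5 members lower in this comparison, and over all genes 69 higher and 176 lower. In edgeR 37 of 78 members had an unadjusted p under 0.05 for 1/4, beside 2326 of the 14788 genes. All 12 oocyte markers had a positive difference in 1/4, 9 of them at that level, and their part in the result was not tested. The median log2 fold change of the members was 0.25 for 1/2 and -0.36 for 1/4, beside -0.014 and 0.054 for all genes.

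For 1/8 of an oocyte, 12 members were higher and 18 lower than in whole oocytes at 18 cycles with gene size factors, whereas with ERCC size factors 77 were lower, beside 87.5% of all genes. With gene size factors the background was 6.99% higher and 8.64% lower of 14788 genes, beside 15.4% and 23.1% of the members. The members' median was -0.42, and that of all genes was 0.027. These comparisons use the same whole oocytes at 18 cycles as the comparison of cycle numbers, so the values are given side by side and not as independent support. In the large subunit 9 of 51 rose and 13 fell, and in the small subunit 3 of 26 rose and 5 fell. Of the 34 members without shared exon bases or a close copy, 4 rose and 10 fell. The small-subunit rises were those of Mrps21, Mrps31 and Mrps33 and the falls those of Mrps7, Mrps15, Mrps24, Mrps26 and Mrps34, of which Mrps7, Mrps21, Mrps24, Mrps33 and Mrps34 are named here after their values were seen. Of the oocyte markers, 8 of 12 rose and 1 fell with gene size factors, whereas with ERCC size factors all 12 fell, as did the 87.5% of all genes given above, and their part in the result was not tested. The count of higher members became 3 without the first whole oocyte, 6 without the second and 5 without the second 1/8 library. The count of lower members became 11 without the second 1/8 library.

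With gene size factors, the largest falls in 1/8 were those of Mrps18a, Mrps26, Mrpl52 and Mrpl15. Mrps18a had 64.8 and 61.7 CPM in the 1/8 libraries, beside 333 and 304 CPM in whole oocytes at 18 cycles (log2 fold change -2.53 ± 0.29 (SE), edgeR adjusted p = 9.29e-06). Mrps26 had 14.5 and 17.6 CPM in 1/8 and 73.2 and 45.1 CPM in whole oocytes (log2 fold change -2.10 ± 0.38 (SE), edgeR adjusted p = 3.58e-04). Mrpl52 had 29.6 and 35.8 CPM (log2 fold change -2.04 ± 0.36 (SE), edgeR adjusted p = 2.99e-04), and was not called without the first whole oocyte, at -1.48. Mrpl15, a conserved large-subunit protein, had 21.7 and 38.2 CPM in 1/8 and 139 and 68.6 CPM in whole oocytes (log2 fold change -2.03 ± 0.39 (SE), edgeR adjusted p = 5.80e-04). It was not called without the first 1/8 library or without the first whole oocyte, at -1.62 and -1.53. For all 4 genes the 1/8 values lay below the whole-oocyte values at 18 cycles.

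The largest rises in 1/8 with gene size factors were those of Mrpl1, Mrpl22, Mrpl35 and Mrps31, all of which fell with ERCC size factors. Mrpl1 had 74.0 and 76.4 CPM in the 1/8 libraries, beside 6.96 and 7.62 CPM in whole oocytes at 18 cycles (log2 fold change 3.17 ± 0.41 (SE), edgeR adjusted p = 2.10e-05). In the 1/2 and 1/4 libraries it stood at 13.9 and 17.0 CPM and 12.2 and 12.1 CPM, far below the 1/8 values. Mrpl22 had 90.8 and 78.7 CPM (log2 fold change 2.67 ± 0.41 (SE), edgeR adjusted p = 9.08e-05). Mrpl35 had 136 and 161 CPM (log2 fold change 2.47 ± 0.41 (SE), edgeR adjusted p = 1.87e-04), and the estimate was 3.13 without the second whole oocyte. Mrps31, a small-subunit protein found in mitochondria alone, had 51.6 and 72.9 CPM in 1/8 and 8.62 and 19.3 CPM in whole oocytes (log2 fold change 1.98 ± 0.44 (SE), edgeR adjusted p = 0.00225). Its estimate was 1.38 without the first whole oocyte and 1.74 without the second 1/8 library, and it was called in neither case, while without the second whole oocyte it was 2.69 and called. Mrpl18 also rose, with 141 and 111 CPM in the 1/8 libraries (log2 fold change 1.92 ± 0.36 (SE), edgeR adjusted p = 5.65e-04). The Spearman correlation of the 1/8 fold changes with GC content was -0.51 over the members and -0.41 over 12268 genes.

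Against whole oocytes at 10 and 14 cycles, the 1/8 libraries showed no member past the threshold. These groups differ in cycle number, input and oocyte together, which cannot be told apart. In the model of all 12 libraries edgeR called 0% of 18041 genes in either direction. At an unadjusted p under 0.05 there were 33 of 78 members, beside 2869 of the 18041 genes. DESeq2 called 3 members higher, of 119 genes higher, and edgeR without the filter called 4 members higher, of 117 genes. The members' median log2 fold change was 0.52, with 74 positive and 4 negative values, beside a median of -0.06 for all genes. Of the oocyte markers 8 of 12 were negative, with a median of -0.18 and 5 at an unadjusted p under 0.05. Of the granulosa and cumulus markers tested, 8 of 9 were negative, with a median of -2.02 and 3 at that level. Their part in the result was not tested. The summed level differed by 0.39 on the log2 scale, a ratio of 1.31 (exact permutation p = 0.133, the smallest possible). The members' fold changes had a Spearman correlation of -0.0047 with GC content and -0.26 with transcript length. Mrps15 came nearest to the threshold among the members named by rule, with 38.3 and 45.2 CPM in 1/8 beside 17.5 and 19.2 CPM at 10 cycles and 20.4 and 19.6 CPM at 14 cycles (log2 fold change 1.18 ± 0.25 (SE), edgeR adjusted p = 0.0355). Mrpl1, with 74.0 and 76.4 CPM in 1/8, was not called (log2 fold change 0.57 ± 0.25 (SE), edgeR adjusted p = 0.267).

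Across the members, the profile of the 1/8 libraries was more like those at 10 and 14 cycles than those of whole oocytes at 18 cycles. Over the 75 members with at least 10 counts in every library, the log2 levels per kb of the 1/8 libraries correlated with those at 10 cycles at r = 0.93 to 0.97 and with those at 14 cycles at r = 0.93 to 0.97. With the whole oocytes at 18 cycles, r was 0.65 to 0.75. The 1/8 libraries correlated with the 1/2 libraries at 0.83 to 0.87 and with the 1/4 libraries at 0.80 to 0.90. These values of fractions lay below those with whole oocytes at 10 and 14 cycles. The whole oocytes at 18 cycles correlated with each other at r = 0.96, with the 1/2 libraries at 0.89 to 0.95 and with the 1/4 libraries at 0.87 to 0.94. With the libraries at 10 and 14 cycles their r was 0.61 to 0.72 and 0.67 to 0.74. The 1/2 libraries correlated with those at 10 cycles at 0.81 to 0.83, and the 1/4 libraries at 0.78 to 0.87. All these libraries share the same genes and base compositions, and the fractions came from 2 lysates, so the values describe likeness only.

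Relative to ERCC molecules, the members' counts were lower with less lysate. The summed counts of the members per ERCC count were 16.7 and 9.39 in whole oocytes at 18 cycles, 4.63 and 2.704 with 1/2 of the lysate, 1.37 and 1.17 with 1/4 and 0.313 and 0.281 with 1/8. No values of these groups overlapped. Relative to whole oocytes at 18 cycles the geometric means were 28.3% for 1/2, 10.1% for 1/4 and 2.37% for 1/8. With this base each was below the 50%, 25% and 12.5% of the dilution. For all genes together they were 26.4%, 13.1% and 3.25%. The log2 difference for 1/8 was -5.40 (exact two-sided permutation p = 0.333, 2 against 2 libraries, the smallest possible). The ratio was 1.44 and 1.71 at 10 cycles and 1.62 and 1.78 at 14 cycles, also in whole oocytes with the same amount of ERCC mix. Both 1/2 values lay above all of these, so the relation to the dilution depended on which whole oocytes were the base. The ratio in whole oocytes thus differed 7.67-fold between 18 and the lower cycle numbers (exact permutation p = 0.133, the smallest possible), and that of all genes together 4.26-fold.

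With ERCC size factors, 46 of 78 members were called lower in 1/2 than in whole oocytes at 18 cycles, 73 in 1/4 and 77 in 1/8. The background of genes called lower was 52%, 69.6% and 87.5% of 14788 genes tested. The members' median log2 fold changes were -1.67, -3.13 and -5.36, and those of all genes were -1.997, -2.69 and -4.92. In 1/8 the exception was Mrpl23, which had 0 counts in the second 1/8 library. The count in 1/2 became 5 without the second 1/2 library and 13 without the first whole oocyte at 18 cycles, while the counts in 1/4 and 1/8 moved by less than 1.5 times when any 1 library was left out.

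The mitochondrial ribosome also has subunits with other names, and 3 of the 5 examined rose at 18 cycles with gene size factors, while all 5 were higher with ERCC size factors. Over all genes 15.4% and 53.1% were higher with these size factors. Gadd45gip1, a large-subunit protein at the exit of the tunnel, had 292 and 364 CPM at 10 cycles, 363 and 361 CPM at 14 cycles and 2059 and 2571 CPM at 18 cycles. Both 18-cycle values lay far above the other 4 (log2 fold change 3.04 ± 0.19 (SE), edgeR adjusted p = 5.81e-06). In 1/8 of an oocyte Gadd45gip1 had 549.6 and 577 CPM, lower than in whole oocytes at 18 cycles (log2 fold change -2.25 ± 0.30 (SE), edgeR adjusted p = 2.50e-05). Chchd1, of the small subunit, had 27.0 and 29.2 CPM at 10 cycles, 34.5 and 38.8 CPM at 14 cycles and 90.5 and 109 CPM at 18 cycles (log2 fold change 1.92 ± 0.19 (SE), edgeR adjusted p = 4.03e-05). Aurkaip1, also of the small subunit, had 54.2 and 70.2 CPM at 10 cycles, 60.2 and 60.9 CPM at 14 cycles and 202 and 179 CPM at 18 cycles (log2 fold change 1.91 ± 0.17 (SE), edgeR adjusted p = 2.43e-05). It also fell in 1/8 (log2 fold change -1.31 ± 0.30 (SE), edgeR adjusted p = 0.00229). Dap3, a GTP-binding protein of the small subunit, was not called, with 286 and 243 CPM at 18 cycles beside 242 and 261 CPM at 10 cycles (log2 fold change 0.41 ± 0.16 (SE), edgeR adjusted p = 0.0687). Ptcd3, a small-subunit protein that binds RNA, was not called either with gene size factors (log2 fold change -0.16 ± 0.25 (SE), edgeR adjusted p = 0.643).

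Of 15 genes for mitochondrial translation factors and mRNA stability, 3 rose and 3 fell at 18 cycles with gene size factors. With ERCC size factors 14 had a positive difference, and 13 were called higher and 0 lower. Over all genes 15.4% were higher and 12.6% lower with gene size factors. With ERCC size factors 53.1% of all genes were higher, and 14985 of 17532 were positive. The median log2 fold change with gene size factors was 0.49. Mtrf1l, the release factor for standard stop codons, had the largest rise, with 6.81 and 6.31 CPM at 10 cycles, 3.32 and 6.74 CPM at 14 cycles and 34.5 and 29.9 CPM at 18 cycles (log2 fold change 2.76 ± 0.32 (SE), edgeR adjusted p = 8.51e-05). Mtfmt, which formylates the initiator tRNA, also rose (log2 fold change 1.52 ± 0.24 (SE), edgeR adjusted p = 5.70e-04), as did Tsfm, the elongation factor Ts (log2 fold change 1.28 ± 0.24 (SE), edgeR adjusted p = 0.00193). Mtrf1, another member of the release factor family, had the largest fall, with 26.4 and 21.9 CPM at 10 cycles, 24.2 and 25.4 CPM at 14 cycles and 3.98 and 4.10 CPM at 18 cycles (log2 fold change -2.33 ± 0.33 (SE), edgeR adjusted p = 3.22e-04). In CPM its 18-cycle values lay below all 4 others. Guf1, a GTPase of translation, fell too (log2 fold change -1.48 ± 0.27 (SE), edgeR adjusted p = 0.00141), as did Slirp, which stabilizes mitochondrial mRNA (log2 fold change -0.98 ± 0.23 (SE), edgeR adjusted p = 0.00564). In 1/8 against whole oocytes at 18 cycles, 2 of 15 rose (Guf1 and Slirp) and 3 fell (Mtrf1l, Mtfmt and Tsfm) with gene size factors, whereas with ERCC size factors all 15 fell. Over all genes 6.99% were higher and 8.64% lower in 1/8 with gene size factors, and 87.5% were lower with ERCC size factors. Tsfm and Slirp are named here after their values were seen.

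Of 25 genes for assembly of the mitochondrial ribosome and modification of its rRNA, 8 rose and 3 fell with gene size factors. With ERCC size factors 24 had a positive difference, and 16 were called higher and 0 lower. The share that fell, 12%, is near the 12.6% of all genes, of which 15.4% rose. With ERCC size factors 53.1% of all genes were higher, and 14985 of 17532 were positive. The median log2 fold change of the 25 genes with gene size factors was -0.0012. The largest rise was that of Noa1, a GTPase gene, with 28.6 and 33.0 CPM at 10 cycles, 29.7 and 21.4 CPM at 14 cycles and 118 and 211 CPM at 18 cycles (log2 fold change 2.85 ± 0.27 (SE), edgeR adjusted p = 2.95e-05). Mpv17l2, which takes part in assembly, had 1.64 and 2.83 CPM at 10 cycles, 3.32 and 2.54 CPM at 14 cycles and 11.9 and 9.38 CPM at 18 cycles (log2 fold change 2.34 ± 0.44 (SE), edgeR adjusted p = 0.00169). For both genes the 18-cycle oocytes lay above the others. Nsun4, which methylates the small rRNA and works with Mterf4 in assembly, had the largest fall, with 279 and 251 CPM at 10 cycles, 305 and 307 CPM at 14 cycles and 51.7 and 60.4 CPM at 18 cycles (log2 fold change -2.06 ± 0.20 (SE), edgeR adjusted p = 3.15e-05). Its partner Mterf4 fell as well (log2 fold change -1.09 ± 0.21 (SE), edgeR adjusted p = 0.00176). Fastkd2, an RNA-binding protein of the mitochondria, had 28.5 and 23.4 CPM at 10 cycles, 29.4 and 27.7 CPM at 14 cycles and 8.29 and 4.69 CPM at 18 cycles (log2 fold change -1.75 ± 0.31 (SE), edgeR adjusted p = 0.00127). In 1/8 against whole oocytes at 18 cycles, Nsun4 and Mterf4 rose and Noa1 and Mtg1, another GTPase gene, fell with gene size factors, of 23 tested, whereas 22 were lower with ERCC size factors, beside 87.5% of all genes. These shares, 8.70% higher and 8.70% lower with gene size factors, are near the 6.99% and 8.64% of all genes, and Mterf4 and Mtg1 are named here after their values were seen. The members' median of 1.00 in whole oocytes at 18 cycles lay above those of the translation and assembly lists, a difference that was not tested.

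The rRNAs that these proteins bind are transcribed in the mitochondria and carry short poly(A) tails, so that part of them enters poly(A) libraries. The small rRNA gene mt-Rnr1 had 446 and 326 CPM at 10 cycles, 381 and 402 CPM at 14 cycles and 94.1 and 139 CPM in whole oocytes at 18 cycles. The large rRNA gene mt-Rnr2 had 1142 and 787 CPM at 10 cycles, 1358 and 1219.8 CPM at 14 cycles and 150.5 and 246 CPM in whole oocytes at 18 cycles. Among the whole oocytes both had their lowest CPM at 18 cycles. In the fractions mt-Rnr1 had 76.0 and 177 CPM in the 1/2 libraries, 139 and 212 CPM in the 1/4 libraries and 239 and 459 CPM in the 1/8 libraries. For mt-Rnr2 these were 110.3 and 284 CPM, 452 and 442 CPM and 471 and 717 CPM. The order of the whole oocytes depended on the scaling, as mt-Rnr1 had 0.144 and 0.117 counts per ERCC count at 10 cycles, 0.132 and 0.142 at 14 cycles and 0.176 and 0.161 in whole oocytes at 18 cycles, where it was highest on this scale. For mt-Rnr2 the counts per ERCC count were 0.369 and 0.283 at 10 cycles, 0.471 and 0.431 at 14 cycles and 0.282 and 0.284 in whole oocytes at 18 cycles, so the last values overlapped those at 10 cycles and lay below those at 14 cycles. None of these differences was tested.

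The spread over all 12 libraries was taken for the 75 members with at least 10 counts in every library. The smallest SD of log2 CPM was that of Mrps25, at 0.266, with 186 to 329 CPM. Most of its exon bases overlap another gene, so reads of the 2 genes cannot be told apart. Mrpl45, which anchors the ribosome to the inner membrane, shares no exon bases and followed with an SD of 0.279 and 41.7 to 83.0 CPM. The largest SDs among the 75 members were 1.33 for Mrpl1, with 6.96 to 76.4 CPM, and 1.23 for Mrpl52, with 15.5 to 159.8 CPM. With gene size factors these 2 genes moved in opposite directions in the whole oocytes at 18 cycles.

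**Figure D3:**
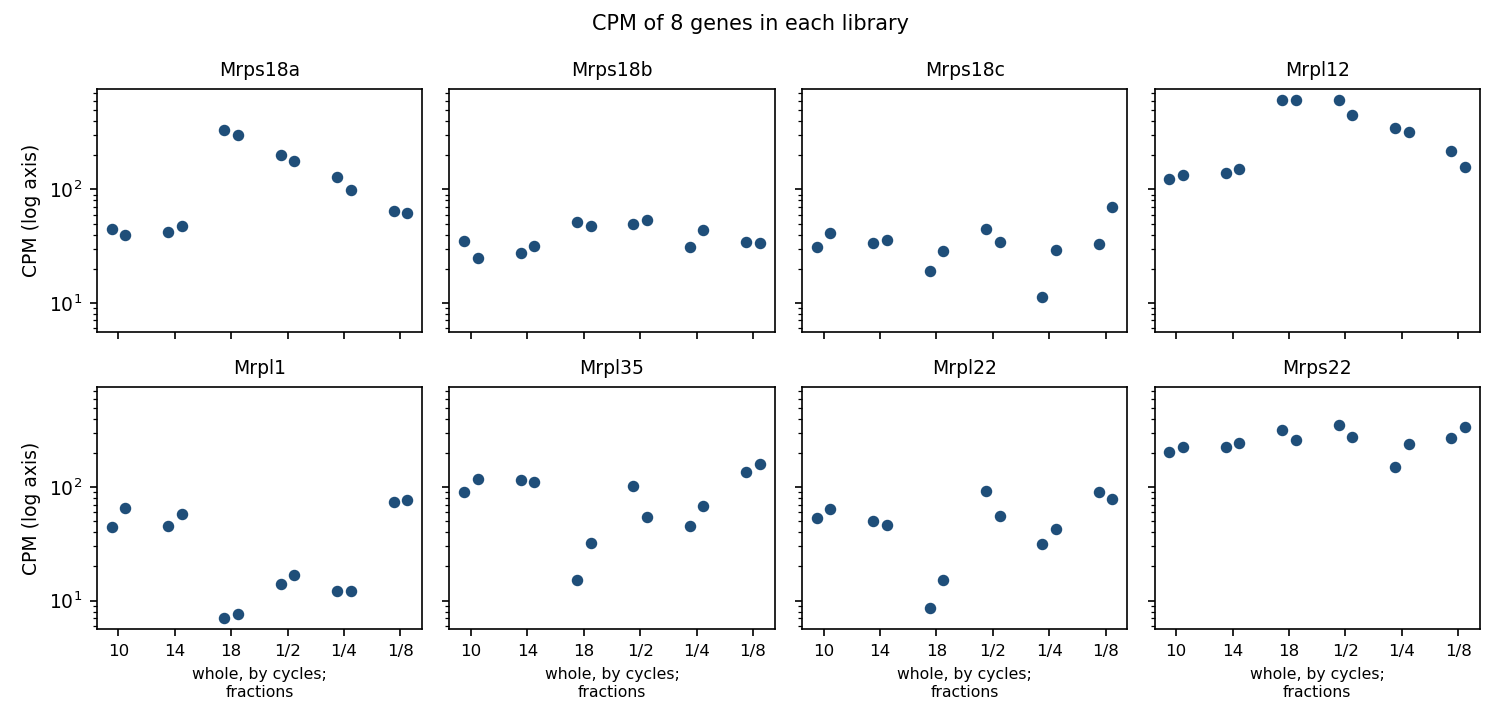
CPM of 8 genes in each of the 12 libraries on a log axis, with whole oocytes by cycle number (10, 14, 18) and fractions of an oocyte (1/2, 1/4, 1/8) along the horizontal axis. Each point is 1 library, and Mrpl1 ranges from 6.96 to 76.4 CPM while Mrps22 ranges from 150.4 to 354 CPM.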

How the data were processed

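The deposited files hold raw counts per gene and ERCC molecule that the authors made with cutadapt 2.5, STAR 2.7.2a (build mm10) and HTSeq 0.9.1, per the labels. The study's methods give other versions and default HTSeq parameters, which count by strand, and the annotation release is not stated. The library kit does not mark strand, and 6.90 to 10.8% of reads were on no feature. The names of the deposited files hold a mark that may stand for counting without strand, which differs from the methods. The labels do not say whether fractions of the same number share an oocyte. CPM was computed here over counts on genes, with depths given in the report, and Wilson 95% intervals cover counting error only.

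Members and lists were chosen with earlier results of these data known. Genes that reached 5 counts in 2 or more libraries of a model were tested by quasi-likelihood in edgeR 4.0.16 (R 4.3.3), with median ratio size factors, Benjamini-Hochberg adjustment over all genes tested and a threshold of 0.01. The models held 6 whole oocytes, the 8 libraries at 18 cycles, or all 12. Standard errors are the fold change over the square root of F. The contrast of 18 with 10 and 14 cycles uses the mean of the 2 lower groups. Sums were compared by exact permutation over libraries (Python 3.11.15, scipy 1.17.1). Copies were searched with BLAST 2.17.0.

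Genes were named by rule. The rule took the 4 highest and 4 lowest levels per kilobase, and, for 18 against 10 and 14 cycles and for 1/8 against whole oocytes, the 4 largest called rises and falls with a mean of at least 50 normalized counts and no overlap. It added the Mrps18 family, Mrps36, Mrps22, Mrpl12 and Mrpl58, the 2 largest and 2 smallest SDs of log2 CPM, members with 0 counts in a library, the other subunits, and the 2 largest called rises and falls of the translation and assembly lists. Alternatives were DESeq2 1.42.0, TMM and ERCC size factors, no filter, all libraries in 1 model, a replicate block, other totals and leaving out each library. No library was left out of the main comparisons.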

Additional observations from a re-analysis of the deposited data

How the results depend on the processing

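Each alternative changed 1 choice at a time. For the main counts and sums, 128 values stayed within 1.5 times a count or within 1 SD of a sum and 28 did not. For the named members followed singly, 341 values kept direction and side of the threshold, 11 lost the call, 5 gained it and 7 turned direction. This tally covers only the genes, comparisons and alternatives followed in this way, and other named genes turned with ERCC size factors. The causes were not tested.

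With ERCC size factors, 64 members were higher and 0 lower at 18 against 10 and 14 cycles, beside 53.1% of all genes higher. Among the members followed singly under this alternative, the log2 fold changes that turned positive were 0.39 for Mrpl18, 0.26 for Mrpl22, 0.20 for Mrpl35, 1.88 for Mrps18c and 1.91 for Mrps36. Other named genes turned positive too, among them Mrps31, Ptcd3, Nsun4 and Fastkd2. With all genes higher and lower in brackets, for 1/2 against whole oocytes TMM gave 0 members (1 and 0 of 14788) and no filter 4 (97 and 118 of 24294). For 1/4, DESeq2 gave 5 (69 and 176 of 14788) and no filter 3 (46 and 157 of 24294). For 1/8 against 10 and 14 cycles, DESeq2 gave 3 (119 and 71 of 18041) and no filter 4 (117 and 120 of 30194). The log2 difference of the sums at 18 cycles was 1.13 with median ratio size factors.

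When each library was left out in turn, the lone library of its group was assumed to vary like the others. The members called at 18 cycles then numbered 36 to 41 higher and 6 to 8 lower. They numbered 0 to 2 for 1/2, 0 to 1 for 1/4, and 3 to 11 higher and 11 to 17 lower for 1/8. With ERCC size factors the lower members numbered 5 to 56 for 1/2, 58 to 74 for 1/4 and 76 to 77 for 1/8. Mrps18c at 18 cycles ran from -0.64 to 0.082 and Mrps22 in 1/8 from -0.28 to 0.044. The log2 difference of the sums at 18 cycles ran from 0.78 to 0.92, and that per ERCC count in 1/8 from -5.81 to -4.99.

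With the replicate number of the labels as a block, 40 members were higher and 11 lower at 18 cycles, and 12 higher and 20 lower in 1/8. The numbers pair no known source. Replicate differences correlated between groups at -0.14 to 0.14 for cycle numbers and -0.087 to 0.093 for fractions, over genes with at least 10 counts. A block with the numbers at 14 cycles crossed, chosen after seeing the data, gave 43 and 12. Drawn down to the smallest library total, 76 members were detected in every library.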
